A study of Arabidopsis thaliana with 6 samples.

Results

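The genes described here are those whose platform symbol begins with 1 of 23 prefixes used for cell cycle, replication and histone genes, read from probe sets of the array that the platform annotation ties to exactly 1 gene. The prefixes cover cyclins (CYC), cyclin-dependent kinases and their small subunit (CDK, CKS), kinase inhibitors (KRP, SMR), CDC and APC proteins, replication factors (MCM, ORC, PCNA, POLA, POLD, RPA), E2F and DEL factors, and histones (HTA, HTB, HTR, HIS). The rule found 13 genes among 13513 such probe sets. No cyclin, cyclin-dependent kinase, inhibitor, MCM, ORC or E2F gene was among them, since 15 of the 23 prefixes had no match. Symbols that hold a semicolon were read as several genes, so a cyclin or kinase gene with such a symbol could not match. Its absence here does not mean that the array lacks it. Of the 13, only 9 have a cell cycle, replication or histone role, namely the H2B genes HTB1, HTB2, HTB4 and HTB11, the centromeric H3 gene HTR12, the linker histone gene HIS1-3, the polymerase subunit genes POLA3 and POLD3, and CDC27a. The other 4 match a prefix by name alone. In RefSeq, CKS at AT1G53000 is CMP-KDO synthetase and not the cyclin-dependent kinase subunit, HISN5B is a histidine biosynthesis gene, DELTA-OAT is an aminotransferase gene and DELTA-VPE encodes a vacuolar processing enzyme. The set therefore samples nucleosome proteins and replication enzymes, and the cyclins and kinases that drive the cell cycle were not analysed here through it.

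The study compared root tips of Arabidopsis thaliana seedlings, 7 days old and raised in darkness on agar medium with sucrose. In the red light group (n = 3) the seedlings received 1 h of red light that peaked at 630 nm, at a fluence rate between 12 and 14 µmol m-2 s-1. In the dark group (n = 3) they spent that 1 h in darkness. Each sample was a pool of 1 cm root tips from several plates, hybridised to 1 single-colour Affymetrix array, and the labels name no ecotype or mutant.

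New root cells come from the meristem at the very tip, where cells copy their DNA in S phase and divide in mitosis. During S phase the cell must also make enough core histones to wrap the new DNA, so many canonical histone genes are transcribed mainly in replicating cells, and S-phase and mitotic transcripts are used as a readout of meristem activity. A 1 cm tip holds the meristem together with the elongation zone and part of the zone of mature cells. In such a bulk sample, fewer cells of a type and less RNA per cell cannot be told apart.

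All values are MAS5 signals, a linear fluorescence summary per probe set, and a change is the log2 difference of red light minus dark. A MAS5 signal has no unit that carries over between probe sets, so each gene was compared only with itself across arrays. The 6 arrays fell into classes by the ratio of signal at the 3' and 5' end of the GAPDH control transcript. Red light 1, dark 1 and dark 3 had ratios of 20.2 to 26.2 (the steep class, with signal weighted to the 3' end). Red light 2, red light 3 and dark 2 had ratios of 0.981 to 1.45 (the flat class). The name flat refers to GAPDH alone. For the actin control the ratio was 13.8 to 20.9 on the flat arrays and 71.7 to 138 on the steep arrays. By actin, the flat arrays thus also had signal weighted to the 3' end, though less so. For the ubiquitin control it was 1.47 to 1.81 and 6.95 to 8.79. Both classes hold arrays of both treatments, and array class was therefore a term in the fit beside treatment. Testing was limited to probe sets whose log2 signal, averaged over the 6 arrays, exceeded the 40th percentile (equal to 88.4 as a signal), which left 13647 probe sets and 11 of the 13 genes. CDC27a and DELTA-VPE lay below it. A gene was called at a limma adjusted p under 0.05.

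None of the 11 tested genes was called for red light, against 0.125% of all probe sets tested (17 of 13647). For none of the 11 did the signals of red light and dark arrays separate without overlap, and 6.16% of all probe sets tested showed such a separation. With only 11 genes, a count of 0 is close to that share. Of the 8 tested genes with a cell cycle, replication or histone role, 3 had a change above 0 and 5 below it, with a median of -0.083 and a range of -0.50 to 0.37. The median over all probe sets tested was -0.030. The smallest limma adjusted p among the 11 was 0.842. None of the 11 had an unadjusted p under 0.05 in limma, beside 939 of all 13647 probe sets tested.

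The H2B genes encode the core histone that pairs with H2A in the nucleosome. HTB1 (AT1G07790) had signals of 721.5, 1222.5 and 2112.6 in red light 1, 2 and 3, against 873.4, 1301.3 and 1366.1 in dark 1, 2 and 3. Both the lowest and the highest HTB1 value came from red light arrays, so the dark values lie inside the red light range. HTB1 averaged 1352 ± 705 in red light and 1180 ± 268 in the dark (SD, n = 3 each), and its change in the fit with array class was -0.15 (SE 0.30, 95% interval -0.81 to 0.52, limma adjusted p = 0.968). The change was -0.60 between arrays of the steep class and 0.30 between arrays of the flat class, where each class sets 1 array against 2. By treatment alone, without array class, its change was 0.088.

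HTB2 (AT5G22880) had signals of 1165.1, 657.6 and 1400.3 in red light, against 1298.8, 599.9 and 964.2 in the dark. Replicate 2 was the lowest array of either treatment for this gene, and red light 3 was the highest. HTB2 had the largest positive change of the 11 genes, 0.37 (SE 0.31, 95% interval -0.31 to 1.04, limma adjusted p = 0.881). The upper end of that interval corresponds to 2.06-fold.

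HTB4 (AT5G59910) had signals of 4204.5, 3074.6 and 5758.1 in red light, against 4368.9, 4264.4 and 4992.5 in the dark. The dark arrays lay close together, with a mean of 4542 ± 394, while the red light arrays spread over 4346 ± 1347 (SD, n = 3 each). The change was -0.085 (SE 0.25, 95% interval -0.62 to 0.45, limma adjusted p = 0.981).

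HTB11 (AT3G46030) had signals of 4327.7, 1689.6 and 2313.0 in red light, against 3371.0, 1816.8 and 3053.1 in the dark. Its 3 brightest arrays were the 3 of the steep class, whichever the treatment. The means were almost equal, 2777 ± 1379 in red light and 2747 ± 821 in the dark (SD, n = 3 each). With array class in the fit the change was 0.28 (SE 0.20, 95% interval -0.17 to 0.72, limma adjusted p = 0.852), and by treatment alone it was -0.048. H2B copies are close in sequence, and cross-hybridisation between them was not tested, although no probe set name of the 13 genes carries the suffix that marks probes shared between transcripts.

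**Figure D1:**
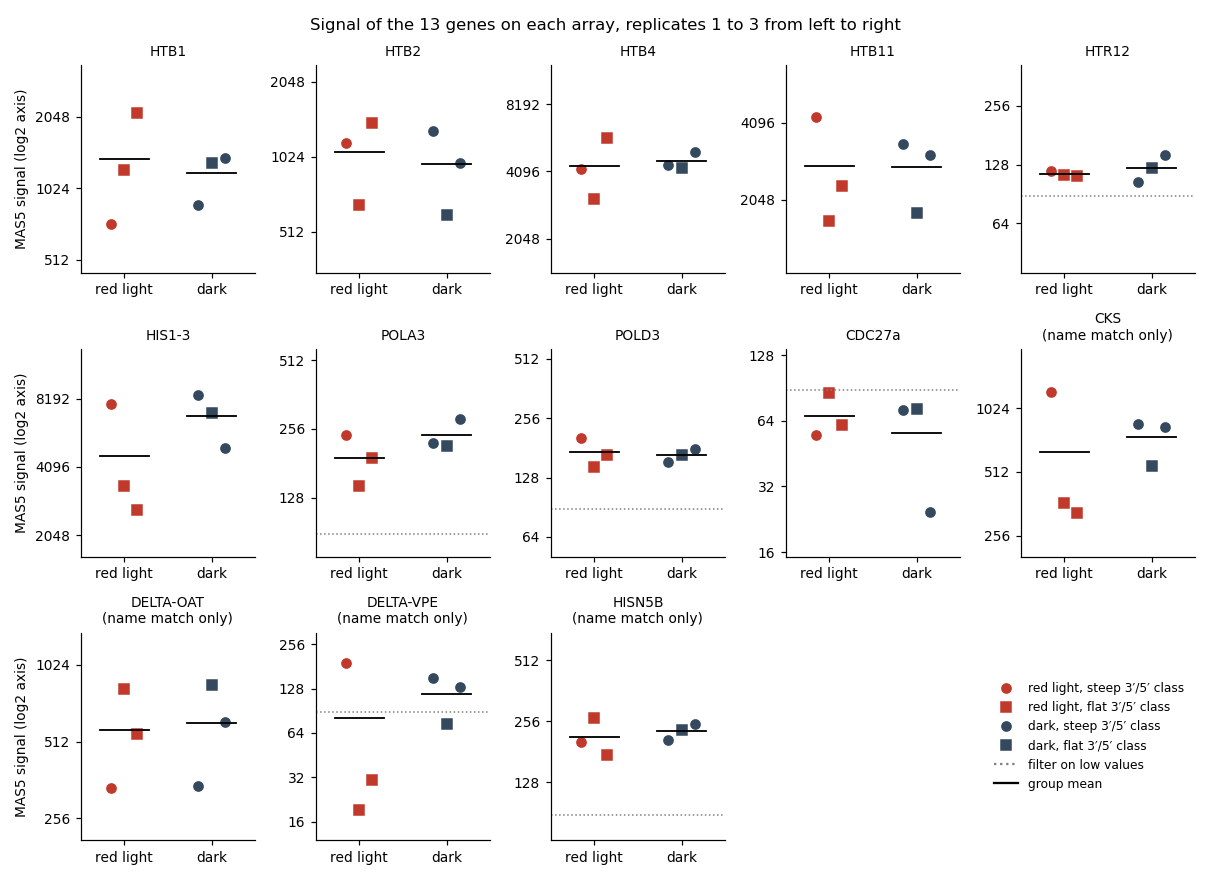
MAS5 signal (y axis, log2 spaced, a different range in each panel) of the 13 genes on the 3 red light arrays (left in each panel) and the 3 dark arrays (right), with circles for the steep class, squares for the flat class, a bar at the arithmetic group mean and a dotted line at the filter of 88.4 where it falls in range. The groups overlap in every panel, HTR12 spans 103.8 to 142.7, and the steep arrays lie above the flat arrays for HTB11, POLA3, CKS and DELTA-VPE.

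HTR12 (AT1G01370), also called CENH3, encodes the H3 variant that marks centromeres and is needed to build kinetochores, so its transcript is tied to dividing cells. It had signals of 118.9, 113.8 and 111.4 in red light, against 103.8, 122.9 and 142.7 in the dark. The red light values all lie within the dark range, and the highest of the 6 values was 1.37 times the lowest, the smallest span among the 13 genes. The corresponding span had a median of 2.27 over all probe sets tested. For HTR12 the change was -0.080 (SE 0.37, 95% interval -0.88 to 0.72, limma adjusted p = 0.987). Its signal lies near the filter of 88.4, where limma's trend assigns a wide error, so the interval spans 1.85-fold lower to 1.65-fold higher.

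HIS1-3 (AT2G18050) encodes a linker histone, which binds DNA between nucleosomes, and is known in Arabidopsis as a drought-induced variant. It had signals of 7729.5, 3386.3 and 2637.7 in red light, against 8502.7, 7071.6 and 4969.3 in the dark. Red light 2 and 3 lie below every dark array, but red light 1 lies above dark 2 and dark 3, so the groups overlap. The means were 4584 ± 2749 in red light and 6848 ± 1777 in the dark (SD, n = 3 each). HIS1-3 had the most negative change of the 11 genes, -0.50 (SE 0.36, 95% interval -1.31 to 0.32, limma adjusted p = 0.852). It was 0.25 within the steep class and -1.24 within the flat class, and that difference was not tested. Its residual SD of 0.61 was larger than that of 91.1% of probe sets tested.

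POLA3 (AT5G41880) encodes a subunit of the primase that starts new DNA strands together with polymerase alpha. It had signals of 239.6, 143.7 and 190.3 in red light, against 221.8, 215.1 and 282.5 in the dark. Its group means were 191 ± 48.0 in red light and 240 ± 37.1 in the dark (SD, n = 3 each), and the change was -0.22 (SE 0.29, 95% interval -0.87 to 0.42, limma adjusted p = 0.930). The change lay below 0 in both array classes, at -0.063 in the steep class and -0.38 in the flat class.

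POLD3 (AT1G78650) encodes an accessory subunit of polymerase delta, which extends the new strands. It had signals of 203.3, 144.1 and 167.5 in red light, against 154.2, 166.7 and 178.4 in the dark. The red light arrays include both its highest and its lowest value, and the change was 0.096 (SE 0.31, 95% interval -0.59 to 0.78, limma adjusted p = 0.983).

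CDC27a (AT3G16320) encodes a subunit of the anaphase-promoting complex, the ubiquitin ligase that ends mitosis. It had signals of 55.3, 85.6 and 61.3 in red light, against 71.9, 72.7 and 24.4 in the dark, none of them above 88.4. The lowest of these came from dark 3, and the groups overlap. When every probe set was fitted without a filter, its change was 0.20 (SE 0.68, limma adjusted p = 0.989).

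**Figure D2:**
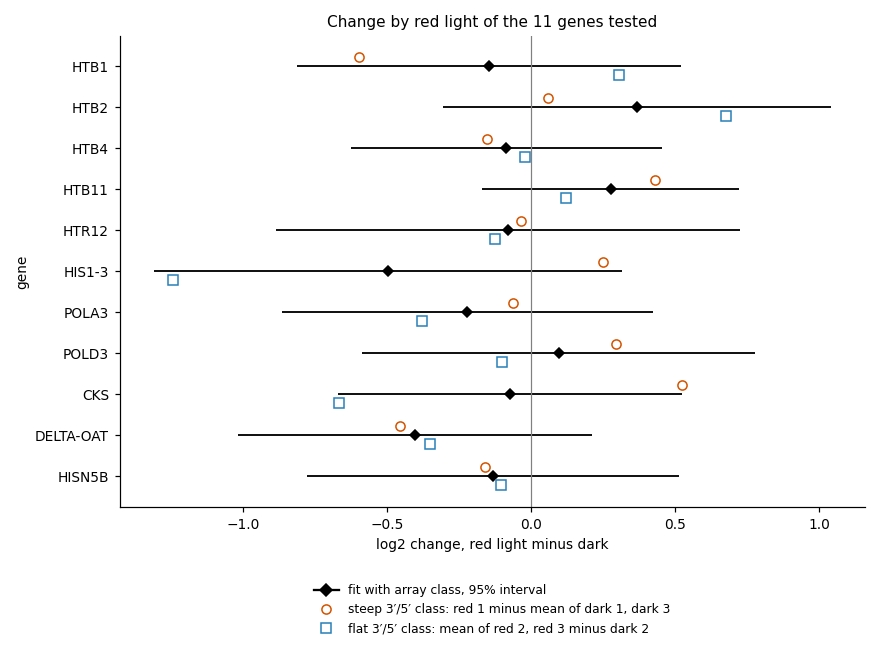
Change by red light (x axis, log2, red light minus dark) of the 11 tested genes (rows), as the estimate with array class in the fit and its 95% interval (black), and as the change within the steep class (circles) and within the flat class (squares). Every interval includes 0, and the circle and square lie on opposite sides of 0 for HTB1, HIS1-3, POLD3 and CKS.

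These intervals give the changes that the arrays leave possible for each gene, without adjustment for the number of probe sets. Among the 8 tested genes with a cell cycle, replication or histone role, the widest bound below 0 was a 2.48-fold lower signal, for HIS1-3, and the widest bound above 0 was the 2.06-fold of HTB2. With treatment as the only term, none of the 11 had an unadjusted p under 0.05 either, beside 258 of all 13647 probe sets tested. Changes by red light beyond those intervals could also have gone uncalled with 3 arrays per group, since p was adjusted over all 13647 probe sets. With treatment as the only term, limma also called 0 of the 11 genes, against 0% of all probe sets tested. The labels call the samples biological replicates. Whether pooled plates of a replicate were grown apart is not stated, so the spread between arrays may be technical in part.

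Array class separated some of these genes. In the same fit, 3 of the 11 tested genes were called for array class, against a background of 36.8% over the whole table. The share among the genes (3 of 11) is therefore no more than the background. HTB11 was the only called gene with a histone, replication or cell cycle role. It averaged 3584 over the steep arrays and 1940 over the flat arrays, a difference of 0.98 (SE 0.20, limma adjusted p = 0.0039). These calls depended on red light 1: without it 0 of the 11 genes were called, with HTB11 at 0.82 (SE 0.27, limma adjusted p = 0.0533), and the share of all probe sets called was 17.7%. Without dark 3, 5 of the 11 were called, against 38.5% of all probe sets. HTB2 differed by 0.59 (SE 0.31, limma adjusted p = 0.152) and HIS1-3 by 0.62 (SE 0.36, limma adjusted p = 0.201). HTB1 had a difference of the other sign, -0.70 (SE 0.30, limma adjusted p = 0.0900), with means of 987 over the steep and 1545 over the flat arrays. HTB4 and HTR12 differed by 0.065 and 0.032.

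The class differences of HTB11 and HTB1 had opposite signs. The log2 ratio of the HTB11 signal to the HTB1 signal was 2.58, 1.95 and 1.16 in red light 1, dark 1 and dark 3 of the steep class, and 0.47, 0.13 and 0.48 in red light 2, red light 3 and dark 2 of the flat class. The classes do not overlap in this ratio. The pair was chosen after its values were seen, so the values are a description without a test. The size of the ratio itself has no meaning across probe sets, and only its differences between arrays do. Among the 9 genes with a cell cycle, replication or histone role, red light 3 was the highest array for 3 genes, red light 1 and dark 3 for 2 each, and red light 2 and dark 1 for 1 each. Red light 2 was the lowest array for 4 of the 9, and every other array for 1.

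**Figure D3:**
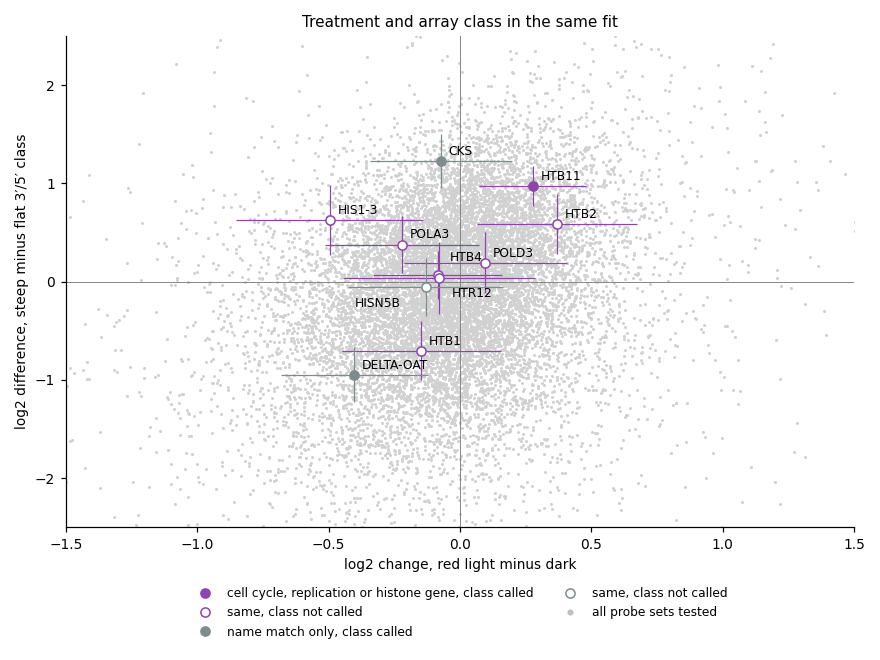
Change by red light (x axis, log2, red light minus dark) against the difference between array classes (y axis, log2, steep minus flat) for the 11 tested genes with standard errors, over all probe sets tested (grey points, of which 313 lie outside the plotted range). HTB11 and CKS lie at 0.98 and 1.23 on the class axis and DELTA-OAT at -0.95, all 3 filled as called, while every gene lies between -0.50 and 0.37 on the treatment axis.

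Of the 4 genes that match by name alone, none was called for red light. CKS, which makes the activated form of the pectin sugar KDO, had signals of 1218.9, 363.2 and 326.1 in red light, against 860.4, 546.7 and 836.2 in the dark. The change was -0.072 (SE 0.27, limma adjusted p = 0.983), which was 0.52 in the steep class and -0.67 in the flat class. Between the classes it differed by 1.23 (SE 0.27, limma adjusted p = 0.0053), or by 0.63 without red light 1 (limma adjusted p = 0.167).

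DELTA-OAT, an ornithine aminotransferase of amino acid metabolism, had signals of 335.9, 824.5 and 547.4 in red light, against 344.5, 856.5 and 614.0 in the dark. Its replicates with the same number lay closer to each other than to the rest of their own treatment. The change was -0.40 (SE 0.28, limma adjusted p = 0.842), and the class difference was -0.95 (SE 0.28, limma adjusted p = 0.0211). That class call was lost without red light 1, red light 2, dark 1 or dark 2, at limma adjusted p of 0.0576 to 0.125. HISN5B had signals of 175.2 to 265.1 over all 6 arrays and a change of -0.13 (SE 0.29). DELTA-VPE had signals of 191.9, 19.1 and 30.9 in red light, against 150.7, 73.2 and 130.6 in the dark, and was too dim to be tested.

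Other genes of the cell cycle were read from lists chosen by function, through probe sets with 1 gene. Of 68 symbols listed for mitosis and cytokinesis, 9 probe sets were named and 8 were tested, and 0 were called for red light. Of 62 symbols listed for replication, nucleotide supply and chromatin assembly, 8 were named and 7 tested, and 0 were called. None of these 15 had an unadjusted p under 0.05 in limma, beside 939 of all 13647 probe sets tested. Their medians were 0.060 for mitosis and 0.14 for replication, beside -0.030 over all probe sets tested.

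BUB3.1, a spindle checkpoint protein, had signals of 418.8, 381.5 and 370.3 in red light, against 324.4, 321.8 and 307.0 in the dark. All 3 red light arrays lie above all 3 dark arrays, a pattern that 6.16% of probe sets tested showed in one direction or the other. The change was 0.32 (SE 0.23, 95% interval -0.19 to 0.82, limma adjusted p = 0.852). TSO1, a cysteine-rich regulator of cell division in meristems, had signals of 90.5, 320.8 and 472.9 in red light, against 209.3, 385.9 and 249.3 in the dark. Its change of -0.66 (SE 0.34, limma adjusted p = 0.775) came to -1.34 for the steep arrays, where red light 1 is set against dark 1 and dark 3, and to 0.013 for the flat arrays. Between the classes TSO1 differed by -1.43 (SE 0.34, limma adjusted p = 0.0081), and by -0.76 without red light 1 (limma adjusted p = 0.185).

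The Aurora kinases, which act on the spindle and on mitotic chromosomes, were measured by all 3 of their genes and are named here after their values were seen. AUR1 had signals of 515.5, 523.4 and 575.5 in red light, against 400.5, 463.2 and 584.2 in the dark, with a change of 0.17 (SE 0.23). AUR2 had signals of 245.6, 215.1 and 228.1 in red light, against 303.1, 209.8 and 384.6 in the dark, with a change of -0.20 (SE 0.27). AUR3, known for phosphorylating histone H3, had signals of 377.0, 152.6 and 125.7 in red light, against 238.6, 144.4 and 333.4 in the dark. For AUR2 and AUR3 the 3 steep arrays were the 3 brightest, and AUR3 differed between the classes by 1.21 (SE 0.30, limma adjusted p = 0.0098), whereas its change by red light was 0.18 (SE 0.30). Without red light 1 the class difference of AUR3 was 0.97 (limma adjusted p = 0.153).

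Among the replication and chromatin genes, HON4, a protein with a linker-histone domain, gave a change of 0.18 (SE 0.21, limma adjusted p = 0.921). Its signals were 814.2, 1090.4 and 1327.7 in red light and 819.3, 1062.8 and 634.9 in the dark. ASF1B, a chaperone that hands new H3 and H4 to the assembly machinery, had signals of 692.2, 328.8 and 463.3 in red light, against 820.1, 412.0 and 809.1 in the dark. Its change was -0.16 (SE 0.23, limma adjusted p = 0.939), and its class difference was 0.91 (SE 0.23, limma adjusted p = 0.0100). That class call was lost without red light 1 or dark 2, at limma adjusted p of 0.0505 and 0.0582. ICU2, the catalytic subunit of polymerase alpha and thus the partner of the primase, had signals of 65.9, 141.6 and 145.4 in red light, against 119.8, 144.4 and 57.5 in the dark, with a change of -0.17 (SE 0.43). It is named after its values were seen.

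**Figure D4:**
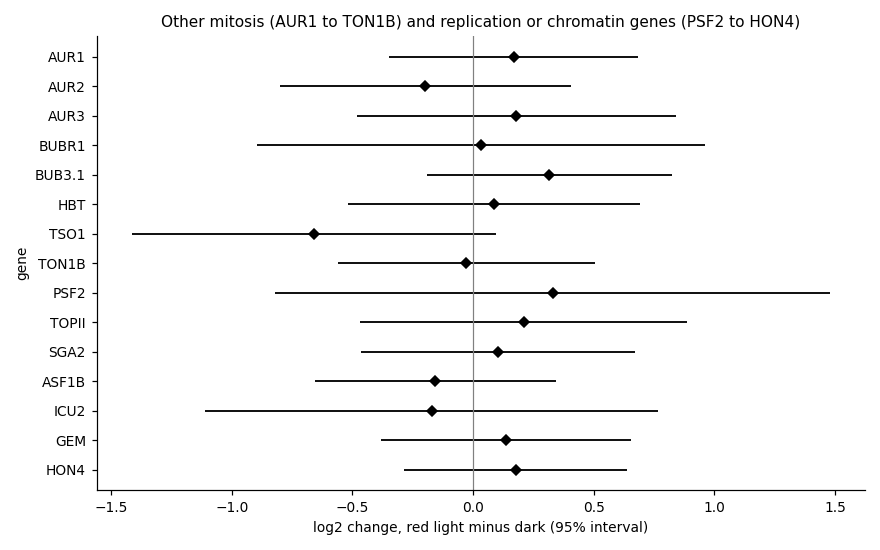
Change by red light (x axis, log2, red light minus dark, with array class in the fit) with 95% intervals for the 8 tested genes listed for mitosis and cytokinesis and the 7 listed for replication and chromatin assembly (rows). All 15 intervals include 0, and the estimates run from -0.66 for TSO1 to 0.33 for PSF2.

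Close to the symbol rule but outside it were PRL, which RefSeq also lists as MCM7, a subunit of the replicative helicase, and cdc2cAt, a cyclin-dependent kinase gene in lower case letters. PRL had signals of 278.6, 308.0 and 447.5 in red light, against 211.2, 388.1 and 339.7 in the dark. Its change was -0.0036 (SE 0.29, 95% interval -0.63 to 0.62, limma adjusted p = 0.999). The probe set of cdc2cAt was dim on every array, with signals of 3.1 to 9.4 in red light, against 3.1 to 11.6 in the dark.

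Markers of the root tip itself were thinly covered. Of 47 symbols listed for the root meristem and cap, 6 had a named probe set, and PLT1, PLT2, SCR, SHR and WOX5 were not among them. UPB1, a transcription factor at the border of the meristem and the elongation zone, had signals of 3561.5, 996.6 and 1393.4 in red light, against 1923.4, 1408.2 and 2110.2 in the dark. Its change by red light was 0.28 (SE 0.26, limma adjusted p = 0.889), and it differed between the classes by 1.06 (SE 0.26, limma adjusted p = 0.0092), but by 0.52 without red light 1 (limma adjusted p = 0.232). JKD, which helps to pattern the ground tissue, had signals of 125.2 to 241.5 in red light, against 168.8 to 216.7 in the dark. Its class difference was -0.27 (SE 0.34, limma adjusted p = 0.561). LHW, another regulator of this list that is named after its values were seen, differed between the classes by -0.56 (SE 0.26, limma adjusted p = 0.120). BBM, a regulator of stem cell identity that was too dim to be tested, had signals of 6.3, 24.7 and 59.7 in red light, against 96.4, 67.6 and 82.1 in the dark, and is named after its values were seen. The groups of BBM do not overlap, as for 6.16% of probe sets tested in one direction or the other. In the fit without a filter its change was -2.32 (SE 0.89, limma adjusted p = 0.832).

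Root hair markers belong to mature epidermis. Of 8 symbols listed, 3 had a named probe set. All 3 were called lower in the steep class (limma), with a median difference of -2.47. Of all 13647 probe sets tested, 2986 were called lower there too. XTH26 lost that call without red light 1 (limma adjusted p = 0.0856), where its difference was -0.80 instead of -1.14, and without it EXPA7 and EXPA18 differed by -1.96 and -1.63 instead of -3.61 and -2.47. EXPA18 had signals of 155.7, 1704.3 and 1390.5 in red light, against 478.8, 1720.5 and 647.4 in the dark, and XTH26 had signals of 302.0, 867.6 and 812.4 in red light, against 789.9, 1163.2 and 565.4 in the dark. In both, the 3 steep arrays were the 3 dimmest, while HTB11 was brightest and TSO1 dimmest on those arrays. By red light, XTH26, EXPA18 and EXPA7 had changes of -0.81 (SE 0.24), -0.999 (SE 0.35) and -1.54 (SE 0.67), each further below 0 than any of the 11 genes of the set. None was called, at limma adjusted p of 0.439, 0.625 and 0.730. For 2 of the 3 the unadjusted p in limma was under 0.05, as for 939 of all 13647 probe sets tested. By treatment alone the changes of XTH26, EXPA18 and EXPA7 were -0.43, -0.18 and -0.34. Within the steep class, where red light 1 is set against dark 1 and dark 3, they were -1.15, -1.84 and -3.19. Within the flat class they were -0.47, -0.16 and 0.11, so the drops of EXPA18 and EXPA7 came mostly from red light 1. EXPA7 had signals of 16.6, 600.4 and 668.2 in red light, against 139.6, 588.1 and 164.5 in the dark. Its value on red light 1 lay below the signal of the filter. Summed over the 3 markers, with EXPA7, the signal ran from 474.3 to 3172.3 in red light and from 1377.3 to 3471.8 in the dark. Of 26 shoot markers, 3 had a named probe set. LHCB4.1 lay at 374.8 to 616.3 in red light and 555.5 to 641.1 in the dark. RCA lay at 122.6 to 259.5 in red light and 67.4 to 237.8 in the dark. LHCB4.2, too dim to be tested, lay at 59.3 to 160.2 in red light and 9.7 to 94.7 in the dark. The class differences of the listed cell division and meristem genes went both ways. Their medians were 0.19 for mitosis, -0.29 for replication and -0.27 for the root meristem and cap, beside -0.065 over all probe sets tested. The part of RNA quality or of tissue makeup in the class differences of HTB11, AUR3, ASF1B, UPB1 and TSO1 was not tested.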

How the data were processed

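The authors deposited linear MAS5 intensity values, 1 for each probe set of an array, per the submitters' processing notes. Detection calls and the version of MAS5 are not given in the sources used here. Per the labels, oligo-dT primed cRNA labelled with biotin was hybridised. Every deposited intensity column has a trimmed mean near 500.05 after 2% were cut from each end, so 1 factor per array had been applied.

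Signals were taken as log2 without a pseudocount, 64 control probe sets were set aside, and probe sets above the 40th percentile of mean log2 signal were fitted in limma 3.58.1 (R 4.3.3, statmod 1.5.0, eBayes with trend and robust). Treatment and array class (GAPDH 3'/5' ratio above or below 5) were the terms, which left 3 residual degrees of freedom. P-values are 2-sided, adjusted by Benjamini and Hochberg over all 13647 probe sets. The number of arrays limits the precision.

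Gene names came from the platform annotation, which does not list 8730 probe sets. In it, 503 probe sets have a symbol entry with a semicolon, and these were read as several genes. A RefSeq table (TAIR10.1) supplied locus tags and synonyms only. All 13 genes have a locus tag there.

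The genes, the lists, the array class term and the alternatives were chosen with earlier results of these data known. Every gene that the prefix rule found is named. From each further list the rule takes called genes and the 2 with the largest moderated t, and genes named beyond it are marked. PRL and cdc2cAt were added after the files were seen. No value stands for a protein or promoter, since sequences were not used here.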

Additional observations from a re-analysis of the deposited data

How the results depend on the processing

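Under every other setting tried, and with the GAPDH ratio in place of array class, which was chosen after seeing the data, limma called none of the tested genes of the set for red light. Of the other cell cycle and replication genes, of which 15 were tested (8 with the filter at the 60th percentile and 17 with no filter), none was called under the settings other than the GAPDH ratio, which was not run for them. The smallest limma adjusted p of a gene of the set was 0.186, for HIS1-3 without red light 1, where its change was -1.24. The median change of the set stayed between -0.18 and -0.010. Of 194 values of single genes under alternatives, 177 kept their sign and 17 did not, and all of these were uncalled. With treatment alone, and with a replicate block beside treatment alone, HTB11 was at -0.048 and HTB1 at 0.088. With a replicate block beside array class, HISN5B was at 0.082, HTB2 at -0.012 and HTR12 at 0.042. CKS was at 0.0028 with array medians centred and at 0.0068 with the GAPDH ratio as covariate. Leaving out 1 array gave -0.60 to 0.30 for HTB1, -0.10 to 0.29 for POLD3, -0.29 to 0.10 for HTB4, -0.67 to 0.52 for CKS, -1.24 to 0.25 for HIS1-3 and -0.19 to 0.012 for HTR12. The cause was not tested.

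Over all probe sets, 17 were called, against 0 with treatment alone or with a replicate block and no class, 17 with the replicate block and class, 33 with array medians centred, 5 with plain eBayes, 38 at an adjusted p of 0.1 and 6 to 288 when 1 array was left out. The counts were 75, 6 and 9 without red light 1, 2 and 3, and 288 and 30 without dark 2 and dark 3. Of the 33 calls with medians centred, 23 were higher and 10 lower, beside 11 and 6. Between the array classes, 3 genes of the set were called, 1 of them among the 8 tested genes with a cell cycle, replication or histone role (a restriction chosen after seeing the data), and 0 to 5 when 1 array was left out. Replicate numbers were not treated as pairs, since the labels do not tie them to a shared experiment. Deviations from the group means correlated at 0.58, 0.64 and -0.32 for numbers 1, 2 and 3. Arrays 1 and arrays 2 share an array class and arrays 3 do not, so these correlations cannot settle the pairing. The block changed no call in the set. The filter left CDC27a and DELTA-VPE out, and signals near the floor have wide errors.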
